A study of Homo sapiens with 6 samples.

Results

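Genes of the alpha- and beta-tubulin families were examined in SKOV3 cells, an established human ovarian cancer line, in which DNM3OS, a long non-coding RNA, had been knocked down by siRNA. The 10 genes were taken from a fixed list of symbols, which was chosen with earlier results of these data known. They comprised 4 alpha genes (TUBA1A, TUBA1B, TUBA1C and TUBA4A) and 6 beta genes (TUBB, TUBB2A, TUBB2B, TUBB3, TUBB4B and TUBB6), out of 34834 genes with a quantified transcript, and held 74 of the 173259 transcripts in the quantified set. The knockdown group (KD1 to KD3, n = 3) received a pool of siRNAs against DNM3OS at 50 nM with Lipofectamine 2000. The control group (NT1 to NT3, n = 3) received a pool of non-targeting siRNAs by the same route. Both groups were the same line, harvested at 48 h, and total RNA was sequenced after removal of ribosomal RNA with a strand-marking kit. All samples come from 1 cell line and 1 siRNA pool per group, and no source used here says whether replicates were separate cultures, so that p-values measure the spread between these samples, which may be technical.

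Alpha- and beta-tubulin form the heterodimer from which microtubules are built, and both subunits bind GTP. Each is encoded by a family of genes whose products, the isotypes, differ mainly near the carboxyl end, where modifying enzymes and motor proteins act. Free tubulin dimers trigger decay of tubulin mRNAs while they are being translated, through TTC5, a factor that reads the first residues of the nascent chain. Microtubules form the mitotic spindle and are the target of taxanes, which are used against ovarian cancer.

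Depth was low for single genes. Total estimated counts ranged from 1610937 to 1995888 per sample, and 93.6 to 95.2% of them lay on annotated genes, so that 3 counts correspond to a CPM (counts-per-million) of 1.61 to 1.97. None of the 6 annotated DNM3OS transcripts was in the quantified set, so the knockdown could not be checked in these values. The sample KD1 stood apart: 29.8% of the tested genes were at their lowest and 28.0% at their highest there. In it the summed counts of 6 abundant mRNAs (ACTB, GAPDH, EEF1A1, RPLP0, FTH1 and TPT1) were 455, against 824 to 2861 in the other samples. These mRNAs held only 0.0243 to 0.157% of the counts on annotated genes. In contrast, BEST1, a chloride channel gene of retinal pigment epithelium whose exons overlap those of FTH1 on the opposite strand by 1267 bases, held 26509 to 46756 counts against 85.5 to 550 for FTH1. The strand setting of the pseudoalignment is not given in the sources used here. Whether the counts of the tubulin genes come from their own mRNA or from RNA of the opposite strand was not tested, and all levels, ranks and shares below are of the counts as assigned. Among markers of the line, KRT8 held 1195 to 2566 counts and ERBB2 311 to 872. KRT18 held 38.3 to 165, KRT19 19 to 184 and EPCAM 16 to 32, while KRT7 held 4 to 12 and MUC1 was listed at 0 in all 6 samples. Of the markers of other cell types, HBB was listed at 0, CD3E held at most 2 counts and CDH5 at most 4.11. However, the leukocyte genes PTPRC and CD68 held 90.5 to 148 and 39.8 to 66.7, and the endothelial gene PECAM1 held 24.0 to 61.8.

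The start of the coding sequence shows how close the members are, and is where TTC5 reads the chain. The first 30 coding bases of the canonical transcripts of GENCODE release 44 are given below, with the stretch that encodes the residues read by TTC5 in capitals.
TUBA1A: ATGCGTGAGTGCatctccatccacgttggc
TUBA1B: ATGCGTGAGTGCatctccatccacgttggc
TUBA1C: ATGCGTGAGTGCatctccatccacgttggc
TUBA4A: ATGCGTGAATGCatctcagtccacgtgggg
TUBB: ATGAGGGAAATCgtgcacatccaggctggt
TUBB2A: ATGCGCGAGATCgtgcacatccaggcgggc
TUBB2B: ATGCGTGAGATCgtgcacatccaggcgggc
TUBB3: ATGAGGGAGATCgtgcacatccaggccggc
TUBB4B: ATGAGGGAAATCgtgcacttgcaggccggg
TUBB6: ATGAGGGAGATCgtgcacatccaggcgggc
TUBA1A, TUBA1B and TUBA1C were identical over these 30 bases, and each beta gene carried its own version of the 30. In the capitals alone TUBB and TUBB4B were identical, as were TUBB3 and TUBB6. The capitals of all the beta genes encode the same residues.

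Over the whole coding sequence TUBA1A and TUBA1B were 97.2% identical, TUBA1B and TUBA1C 96.8%, and TUBA1A and TUBA1C 95.9%. TUBA4A stood further off, at 84.4 to 85.7% identity with the other alpha genes. TUBB2A and TUBB2B were 98.1% identical, whereas all other pairs of beta genes lay between 80.9 and 87.7%. This similarity bears on the counts, because the quantification assigns reads by words of 31 bases. Of the 31-base words of TUBB2A, 62.7% occurred in transcripts of another gene, most often TUBB2B. The share was 51.6% for TUBB2B, 36.8% for TUBB3, 31.4% for TUBA1B, 26.6% for TUBA1A and for TUBB, and 24.2% for TUBA1C. It was lowest for TUBB4B (15.6%), TUBA4A (6.74%) and TUBB6 (3.005%). The TUBB3 words were shared mainly with an annotated read-through gene that contains TUBB3. Counts of the near-identical pairs are therefore uncertain where the estimation could split them.

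The members are spread over 6 chromosomes (GRCh38). TUBA1A (chr12:49184686-49189080, minus strand), TUBA1B (chr12:49127782-49131397, minus strand) and TUBA1C (chr12:49188736-49274600, plus strand) lie side by side on chromosome 12. TUBA4A is at chr2:219249710-219277902 on the minus strand. TUBB (chr6:30717435-30725538, plus strand), TUBB2A (chr6:3153497-3157544, minus strand) and TUBB2B (chr6:3223324-3231730, minus strand) are on chromosome 6. TUBB3 is at chr16:89921392-89938761, TUBB4B at chr9:137241287-137243707 and TUBB6 at chr18:12307669-12344320, all on the plus strand.

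Levels were compared between genes in TPM (transcripts-per-million), which are per length. TUBB6, the class V beta-tubulin, was listed far above all others. Its TPM was 942 in KD1, 1356 in KD2, 1447 in KD3, 1239 in NT1, 1233 in NT2 and 1445 in NT3. The groups overlapped, and KD1 was the lowest sample.

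Of the alpha genes, TUBA1C, a broadly expressed isotype, had 142, 114 and 131 TPM in KD1 to KD3 and 218, 131 and 129 TPM in NT1 to NT3. Only NT1 stood above the others. TUBA1B, the main alpha isotype of most proliferating cells, had 25.1, 83.5 and 97.9 TPM in KD1 to KD3 and 152, 66.0 and 148 TPM in NT1 to NT3. It was lowest in KD1 and next lowest in NT2. TUBA4A, the alpha isotype whose gene does not encode the terminal tyrosine, had 22.4, 23.9 and 16.9 TPM under knockdown and 30.7, 22.7 and 27.4 TPM in the controls. TUBA1A, the isotype best known from postmitotic neurons, had 12.1, 9.73 and 12.9 TPM under knockdown and 29.96, 13.6 and 17.2 TPM in the controls. For TUBA1A the groups did not overlap in TPM, but they did in CPM, the scale of the test below.

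Among the other beta genes, TUBB4B, a broadly expressed isotype also found in cilia, had 6.02, 22.5 and 39.5 TPM in KD1 to KD3 and 55.4, 15.9 and 55.2 TPM in NT1 to NT3. NT1 and NT3 were high, and KD1 and NT2 low. TUBB3, a neuronal isotype often followed in taxane-resistant tumours, had 13.2, 34.2 and 44.4 TPM under knockdown and 38.4, 23.6 and 34.3 TPM in the controls, with KD1 lowest and KD3 highest. TUBB2A had 9.09, 16.0 and 17.6 TPM against 13.6, 10.9 and 12.9 TPM. TUBB, the ubiquitous class I beta-tubulin, had only 1.28, 5.88 and 8.19 TPM against 12.7, 3.73 and 9.51 TPM, on 4.78 to 39.6 estimated counts per sample. TUBB2B, an isotype of the developing brain, was listed at 0 in 4 samples and held 1.75 counts in KD3 and 2.16 counts in NT2. Those values are below the floor of 3 counts, so it was not detectable at this depth.

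**Figure D1:**
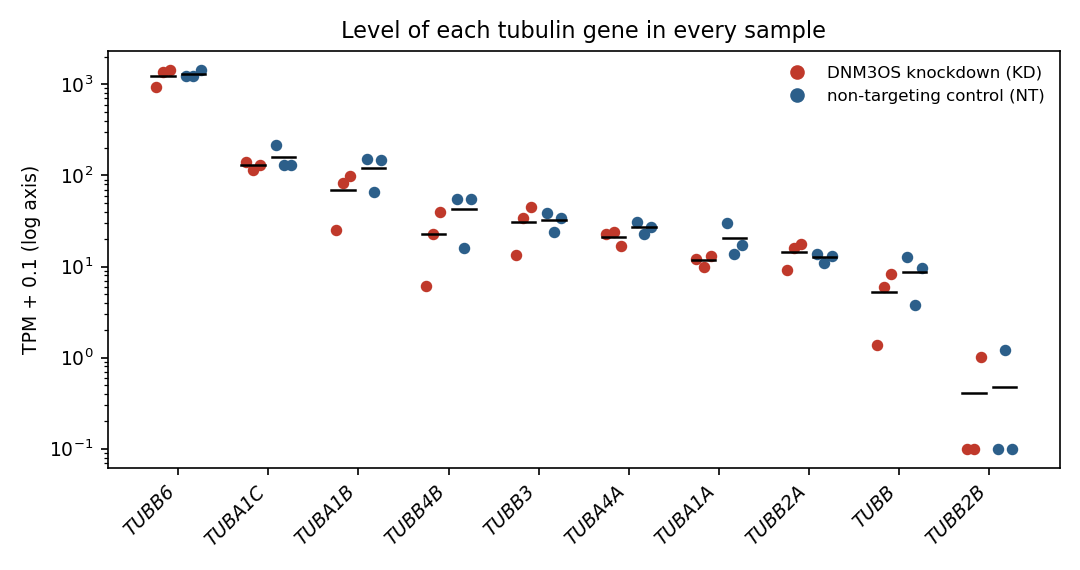
Level of each of the 10 tubulin genes in every sample, as TPM with 0.1 added, on a log axis. Red points are the 3 DNM3OS knockdown samples, blue points the 3 non-targeting controls, and black lines the group means. TUBB6 lies between 942 and 1447 TPM in all 6 samples, and TUBB2B is at 0 in 4 of them.

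In the order of mean TPM over the 6 samples (mean ± SD, n = 6), TUBB6 (1277 ± 189) was followed by TUBA1C (144 ± 37.4), TUBA1B (95.4 ± 48.9), TUBB4B (32.4 ± 20.8) and TUBB3 (31.4 ± 11.2). TUBA4A (24.0 ± 4.72), TUBA1A (15.9 ± 7.30), TUBB2A (13.4 ± 3.16), TUBB (6.88 ± 4.12) and TUBB2B (0.340 ± 0.530) came after. Neighbours in this order were compared within samples by a two-sided exact sign-flip permutation test on log2(TPM + 0.1), whose smallest p with 6 samples is 0.03125. The order was taken from the same 6 samples, both groups pooled, so these p-values describe its steadiness over samples and are no independent test of it. TUBB2B, the last of the order, was not detectable. TUBB6 exceeded TUBA1C, TUBA1B exceeded TUBB4B, TUBA4A exceeded TUBA1A, TUBB2A exceeded TUBB and TUBB exceeded TUBB2B in 6 of 6 samples (exact permutation p = 0.03125 each, 0.05625 after Benjamini-Hochberg adjustment over the 9 neighbour pairs). None therefore passed 0.05 after adjustment. From estimated counts per mean transcript length in place of TPM these 5 pairs, with the same direction, and TUBB4B below TUBB3 had an adjusted exact permutation p of 0.046875 (p = 0.03125). They passed 0.05 only because 6 rather than 5 of the 9 pairs reached the smallest p. The mean log2 difference was 3.17 between TUBB6 and TUBA1C, and 1.69 between TUBA1B and TUBB4B. TUBA1C was above TUBA1B in 5 of 6 samples (log2 difference 0.78, SD 0.92, exact permutation p = 0.0625). TUBB4B and TUBB3, TUBB3 and TUBA4A, and TUBA1A and TUBB2A did not differ beyond their spread in TPM, and TUBB4B was the higher of its pair in only 2 of 6 samples (exact permutation p = 0.469, 0.344 and 0.562).

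The high value of TUBB6 came from 1 transcript. TUBB6-213 (ENST00000591909, 1017 bases in 4 exons) held 92.6% of the gene's estimated counts on average, with 996, 1179 and 1199 counts in KD1 to KD3 and 1202, 1039 and 1352 counts in NT1 to NT3. The canonical TUBB6-201 held 41.3, 24.2 and 9.74 counts under knockdown and 46.1, 21.3 and 38.9 in the controls. Most of TUBB6-213, 638 of its 1017 bases (62.7%), lies in exons of AFG3L2 on the opposite strand. AFG3L2 (chr18:12328944-12377227, minus strand) encodes a subunit of the protease of the inner mitochondrial membrane. The shared bases are in the last exon of TUBB6-213 (chr18:12329146-12329826, 681 bases). The first 30 bases of that exon are shown on both strands, because a read from them belongs to TUBB6-213 or to AFG3L2 by its strand alone; this window is at chr18:12329146-12329175.
plus strand, TUBB6-213: cccatctgcacaggggaactgaggagaaac
minus strand, AFG3L2: gtttctcctcagttcccctgtgcagatggg
AFG3L2 itself held 452, 470 and 473 counts in KD1 to KD3 and 557, 445 and 579 counts in NT1 to NT3. In these counts, which are not scaled for depth, both TUBB6-213 and AFG3L2 were highest in NT3. In CPM TUBB6-213 was highest in KD3 (833, against 804 in NT3), and AFG3L2 in NT3 (341, against 332 in KD3). Since the files give 1 count per transcript, it cannot be told over which exon of TUBB6-213 its reads lay.

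**Figure D2:**
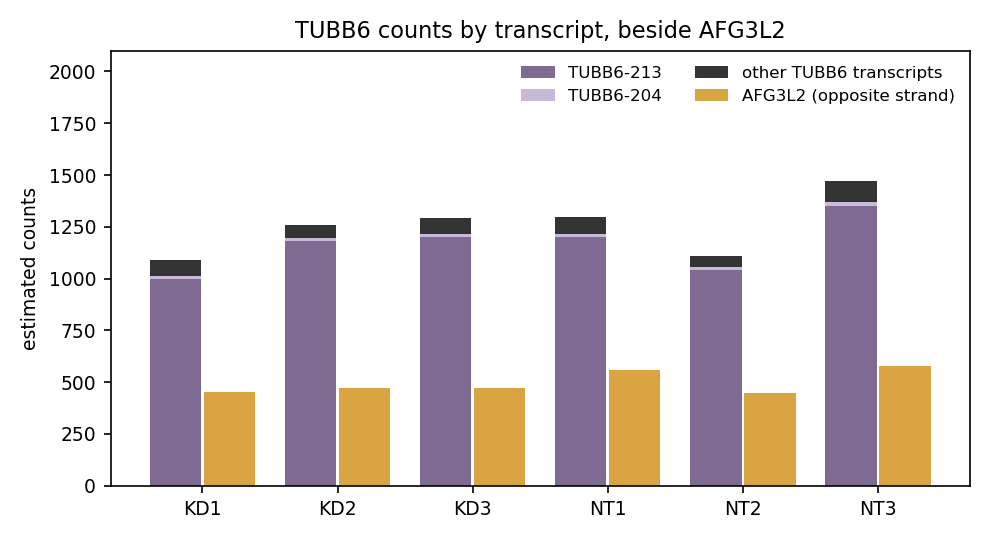
Estimated counts of TUBB6 in each sample, stacked by transcript (TUBB6-213, TUBB6-204, and all others), beside those of AFG3L2, whose exons lie opposite on the other strand. TUBB6-213 holds 996 to 1352 counts in every sample, and AFG3L2 445 to 579.

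The level of TUBB6 without the transcripts of which at least 50% lies opposite exons of a coding gene was much lower. Leaving out TUBB6-213 and TUBB6-204, TUBB6 had 44.4, 48.4 and 79.0 TPM under knockdown and 52.6, 63.2 and 79.7 TPM in the controls, a mean of 61.2 ± 15.4 (SD, n = 6). It then ranked below TUBA1B and TUBA1C. The same rule removed TUBA1C-205, which lies opposite TUBA1A, and lowered TUBA1C to 87.3 ± 23.3 TPM, below TUBA1B in 4 of 6 samples. The mean log2 difference of TUBA1B from TUBA1C was then -0.045 (exact permutation p = 0.9375), so their order was not settled. TUBA1B-202, with 88.6% of the TUBA1B counts, was kept because the rule counts only coding genes. Of its bases, 72.65% lie opposite the antisense gene TUBA1B-AS1.

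Other members also had exons opposite theirs. TUBB4B shares 124 bases with FAM166A, which held 168 to 285 counts where TUBB4B held 12.3 to 101. TUBB2B shares 174 bases with PSMG4, a proteasome assembly chaperone gene with 99.3 to 210 counts. TUBA4A shares 628 bases with the kinase gene STK16, which held 14 to 22 counts. TUBA1A and TUBA1C overlap each other by 345 bases. TUBA1B lies opposite TUBA1B-AS1 over 1571 bases, but that antisense gene was not in the quantified set. TUBB and TUBA1C each lie opposite a gene without a symbol, over 538 and 666 bases, and neither of these genes was in the quantified set. Smaller overlaps were those of TUBA4A with TUBA4B (112 bases) and of TUBA1A with TUBA1B-AS1 (68 bases). TUBB2A and TUBB3 had no exon opposite them. The part of these overlaps in the levels was not tested beyond leaving out transcripts.

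The share of each isotype in its class does not depend on library scaling. TUBB6 made up 94.8 ± 2.04% of the beta-tubulin TPM in the knockdown group and 93.2 ± 2.30% in the controls (SD, n = 3 each), a range of 91.2 to 97.0% over samples. Without TUBB6-213 and TUBB6-204 its share was 30.4 to 60.0%, TUBB3 made up 17.9 to 26.9% and TUBB4B 8.13 to 32.1%. TUBB2A then made up 12.3, 12.6 and 9.30% in KD1 to KD3 and 7.90, 9.17 and 6.745% in NT1 to NT3, so its groups did not overlap. With all transcripts they did, and this difference, on a mean of 18.3 estimated counts, was not tested. Within the alpha class, TUBA1C made up 56.8 ± 11.8% in the knockdown group and 49.0 ± 8.15% in the controls, and TUBA1B 28.8 ± 14.2% and 36.5 ± 8.96%. The differences between group means were smaller than the SD of the knockdown group for both. TUBA4A held 9.33 ± 2.47% and 8.46 ± 1.32%, and TUBA1A 5.06 ± 0.889% and 6.05 ± 0.830%. KD1 had the most uneven alpha class, with TUBA1C at 70.4% and TUBA1B at 12.4%. The 10 genes together summed to 1552 ± 337 TPM in the knockdown group and 1730 ± 186 TPM in the controls.

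**Figure D3:**
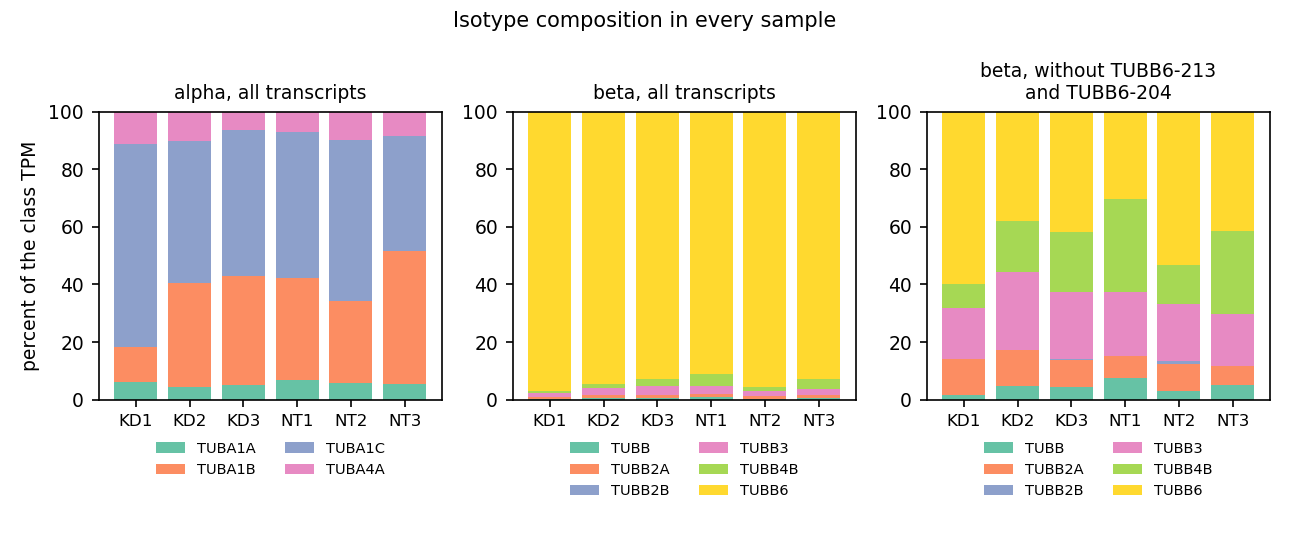
Percent of the summed TPM of the class held by each isotype in every sample, for the alpha genes, for the beta genes, and for the beta genes without TUBB6-213 and TUBB6-204. TUBB6 holds 91.2 to 97.0% of the beta class in the middle panel and 30.4 to 60.0% in the right panel.

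The knockdown was compared with the non-targeting control over all genes by edgeR's exact test, with a call at a 2-fold change and an adjusted p below 0.05. No tubulin gene passed. Of the 10 members 9 had enough counts to be tested, 0 were called lower and 0 higher, against 0.00846% of the 11814 tested genes called lower and 0% called higher. The 1 called gene was BORCS7-ASMT, a read-through of the lysosome-positioning gene BORCS7, named here after its value was seen (log2 fold change -2.59, edgeR exact test adjusted p = 0.00550). None of the 9 members had an unadjusted p below 0.05 by the exact test, edgeR's quasi-likelihood test or DESeq2, while 345, 346 and 192 of all genes did. The values of both groups overlapped for all 9, against 3.56% of all genes with every knockdown sample below every control and 4.42% with every knockdown sample above. The design of 3 against 3 cannot give a two-sided permutation p below 0.1 for a single gene.

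None of the 9 had a point estimate at least 2-fold lower, against 1.48% of all genes. Point estimates were lower in the knockdown group for 8 of the 9 tested members, against 49.4% of all genes, with a median log2 fold change of -0.38 against 0.00417. Without KD1 it was 6 of 9. With the share of the 6 reference mRNAs as a covariate it was 3 of 9, against 47.9% of all genes. With libraries scaled to these mRNAs the median of all genes moved to 1.11, so that 2.56% of all genes and 1 of the 9 members were lower, and all 9 members lay below that median.

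Among the alpha genes TUBA1B had the lowest estimate. Its CPM was 27.4, 99.3 and 112 in KD1 to KD3 and 166, 75.3 and 161 in NT1 to NT3, a mean of 79.4 ± 45.4 against 134 ± 51.0. The log2 fold change was -0.76 (SE 0.73, edgeR exact test adjusted p = 1, exact permutation p = 0.3), and -0.34 without KD1. TUBA1A had 12.6, 12.8 and 15.4 CPM under knockdown and 30.2, 13.1 and 21.2 in the controls, and its log2 fold change was -0.67 (SE 0.34, edgeR exact test adjusted p = 1, exact permutation p = 0.2). Without NT1 it was -0.35. TUBA4A had a log2 fold change of -0.38 (SE 0.16), from 27.8 ± 4.75 CPM against 36.1 ± 4.15 CPM. TUBA1C had -0.34 (SE 0.24), from 73.8 ± 13.2 CPM against 93 ± 22.8 CPM. Neither passed the test (edgeR exact test adjusted p = 1 for both, exact permutation p = 0.2 and 0.3).

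Among the beta genes the largest estimate was that of TUBB4B, and it was also the least certain. Its CPM was 5.58, 24.99 and 43.5 under knockdown and 57.5, 17.02 and 58.2 in the controls. The log2 fold change was -0.86 (SE 0.99, edgeR exact test adjusted p = 1, exact permutation p = 0.5), and -0.36 without KD1. TUBB gave -0.72 (SE 0.83, edgeR exact test adjusted p = 1), and -0.22 without KD1. TUBB6 hardly differed between the groups, with 755 ± 216 CPM against 777 ± 75.9 CPM and a log2 fold change of -0.04 (SE 0.28, edgeR exact test adjusted p = 1, exact permutation p = 0.9). TUBB3 gave -0.13 (SE 0.60) and TUBB2A 0.20 (SE 0.49), both with an adjusted p of 1 by edgeR's exact test. The sign of TUBB6 turned without KD1 or without NT3, that of TUBB3 without KD1 or without NT1, and that of TUBB2A without KD3.

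**Figure D4:**
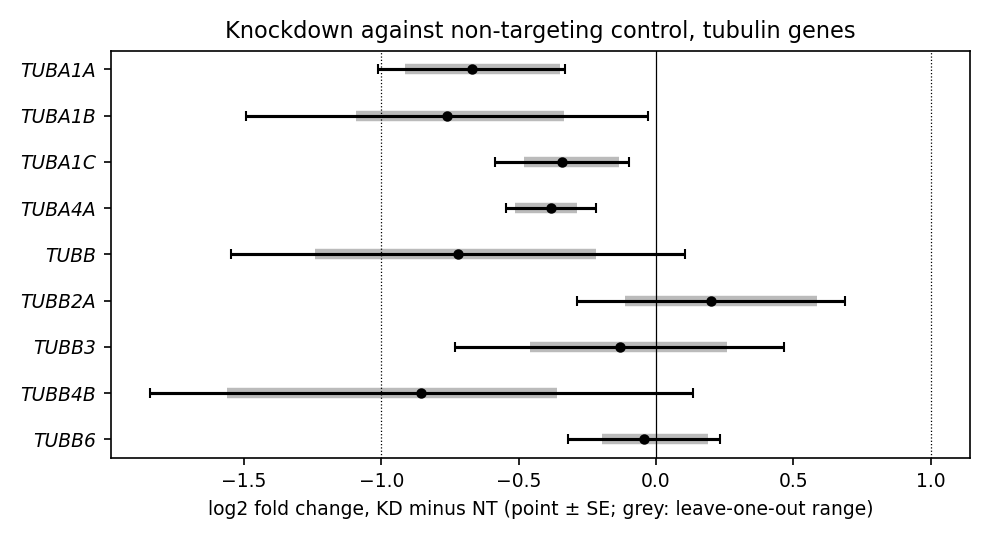
Log2 fold change, knockdown minus non-targeting control, of the 9 tested tubulin genes. Points are the values from edgeR's exact test, bars the SE over samples (n = 3 per group), grey bands the range when each sample is left out in turn, and dotted lines the 2-fold limits. Every estimate lies within the 2-fold limits, from -0.86 for TUBB4B to 0.20 for TUBB2A.

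Many of the members were low or high in the same samples. KD1 was the lowest sample for 8 of the 9 tested members, all but TUBA4A, against 29.8% of all tested genes. NT1 was the highest for 5, KD3 for 3 and NT3 for 1, against 19.8, 14.3 and 13.1% of all tested genes. In NT2 none of the 9 members was above its own mean, as in KD1. In KD2 6 were, in KD3 7, in NT1 8 and in NT3 all 9. The low values in KD1 lower these means, and the same count over all genes was not taken. The summed CPM of the 6 reference mRNAs followed a like order, with 212 in KD1, 539 in NT2, 788 in KD3, 871 in KD2, 1242 in NT3 and 1630 in NT1. Its part in the members' values was not tested beyond the covariate and the scaling given above. On the log2 CPM scale TUBB4B spread widest, from -2.06 relative to its mean in KD1 to 1.07 in NT3. TUBA4A spread least, from -0.38 in KD3 to 0.31 in NT1.

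**Figure D5:**
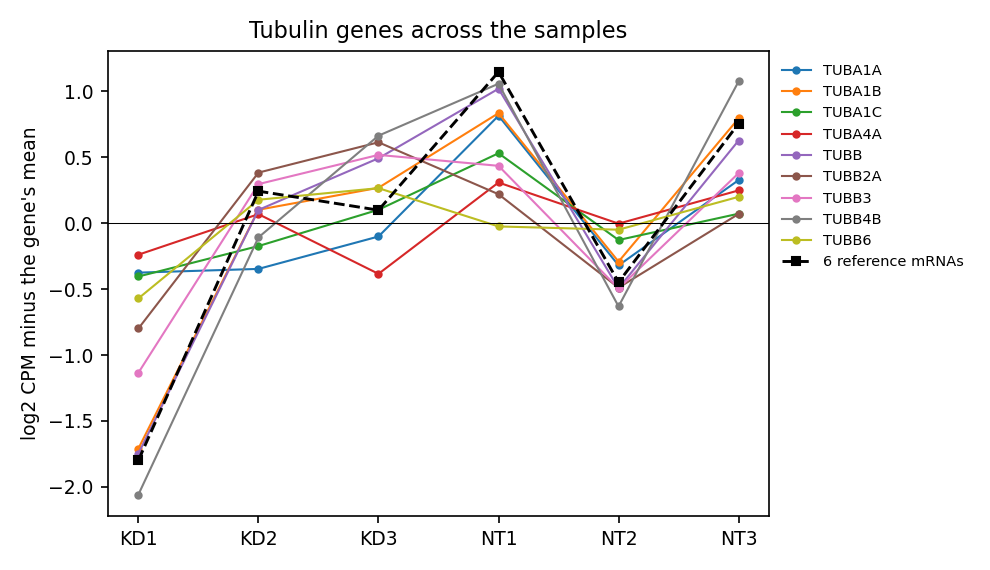
Log2 CPM of the 9 tested tubulin genes in each sample, minus the gene's mean over the 6 samples, with the summed CPM of the 6 reference mRNAs (black squares, dashed). Lines only join the values of 1 gene. KD1 is lowest for 8 of the 9 genes, and NT1 and NT3 are high.

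At transcript level 19 transcripts of the members had enough counts to be tested, and none was called by edgeR's exact test. Of all 16544 tested transcripts 0.157% were called lower and 0.0967% higher. None of the 19 had an unadjusted p below 0.05 by the exact test or by the quasi-likelihood test, against 2.20 and 2.40% of all tested transcripts. Of the 19, 14 had a lower point estimate in the knockdown group, against 50.0% of all tested transcripts, and without KD1 it was 14 of 20, against 50.9%. TUBB6-213 had a log2 fold change of -0.08 (SE 0.30), TUBA1B-202 of -0.81 (SE 0.87) and TUBB4B-201 of -0.90 (SE 1.01). Without KD1 TUBA1B-202 moved to -0.35, TUBB4B-201 to -0.40 and TUBB-205 to -0.28. TUBA1C-201 had -0.20 (SE 0.29), TUBA4A-201 -0.51 (SE 0.20), TUBA1A-202 -0.55 (SE 0.34, -0.27 without NT1) and TUBB-205 -0.86 (SE 1.15, -0.39 without NT1). TUBB2A-201 had 0.20 (SE 0.69) and TUBB3-206 0.00309 (SE 0.66). The adjusted p by edgeR's exact test was 1 for each. These are the transcripts with the most counts of each tested member.

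The other tubulins in the list were mostly too low to test. Of 12 genes 5 were tested and 0 called, and their median log2 fold change was -0.07. TUBB1, the beta-tubulin of platelets, had 70.7, 85.1 and 106 CPM in KD1 to KD3 and 100, 80.5 and 103 CPM in NT1 to NT3, a log2 fold change of -0.12 (SE 0.20, edgeR exact test adjusted p = 1). It overlaps exons of the ATP synthase gene ATP5F1E on the opposite strand by 1180 bases. TUBG1, the gamma-tubulin that nucleates microtubules, had a log2 fold change of -0.41 (SE 0.46). TUBA3D gave 0.42 (SE 0.33), the delta-tubulin gene TUBD1 0.06 (SE 0.11) and the epsilon-tubulin gene TUBE1 -0.07 (SE 0.10), all with an adjusted p of 1 by edgeR's exact test.

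Genes that fold, nucleate, bind or modify tubulin were not called either, by edgeR's exact test, its quasi-likelihood test or DESeq2. All 8 subunits of the chaperonin CCT, which folds new tubulin, had a lower point estimate, against 49.4% of all tested genes, with a median log2 fold change of -0.47. CCT6A was nearest to the threshold, with 17.2 ± 5.31 CPM against 34.9 ± 13.5 CPM and a log2 fold change of -1.04 (SE 0.43, edgeR exact test adjusted p = 1). All 4 tested subunits of prefoldin, which hands tubulin to CCT, were also lower (median -0.58), with PFDN1 at -0.79 (SE 0.44). Without KD1, 6 of the 8 CCT subunits and 4 of 5 tested prefoldin subunits were lower, against 50.85% of all tested genes. With the reference mRNA share as a covariate 2 of the 8 CCT subunits were lower, as were 2 of the 4 prefoldin subunits, against 47.9% of all tested genes. Of the 6 tested tubulin folding cofactors 4 were lower (median -0.16), with TBCA at -0.82 (SE 0.26).

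For the lists that follow, the share of all tested genes with a lower point estimate was 49.4%, 50.85% without KD1 and 47.9% with the covariate. Of the 7 tested genes of the gamma-tubulin ring complex 3 were lower and 4 higher, with CDK5RAP2 at -0.97 (SE 0.52). Among microtubule-associated proteins 11 of 14 were lower (median -0.21), as were 8 of 15 without KD1 and 7 of 14 with the covariate. CAMSAP2, which binds microtubule minus ends, had 5.58, 5.40 and 10.5 CPM in KD1 to KD3 and 23.9, 10.5 and 22.4 CPM in NT1 to NT3, a log2 fold change of -1.42 (SE 0.45, edgeR exact test adjusted p = 1). Among plus-end proteins 8 of 9 were lower (median -0.12), as were 8 of 9 without KD1 and 5 of 9 with the covariate, with the dynactin gene DCTN1 at -1.19 (SE 0.64). Destabilisers and severing enzymes were split 2 to 2, with the stathmin gene STMN1 at -0.33 (SE 0.45). Of 15 tubulin modifying enzymes 4 were lower and 11 higher (median 0.05), and the deacetylase gene HDAC6 had 54.2 ± 4.59 CPM against 42.8 ± 4.22 CPM (log2 fold change 0.34, SE 0.11). At an unadjusted p below 0.05 by the exact test were 2 CCT subunits, 1 microtubule-associated protein and 1 plus-end protein, among them CCT6A, CAMSAP2 and DCTN1. Over all 11814 tested genes it was 345. By DESeq2 it was 1 CCT subunit, 1 microtubule-associated protein and 2 plus-end proteins, against 192 of all tested genes. None of the genes named in this paragraph and the one before had an adjusted p below 1 by edgeR's exact test. The 6 reference mRNAs had a median of -0.93, all 6 with a lower point estimate, and ACTB had -1.05 (SE 0.55).

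The genes with the most similar course over the 6 samples were sought for the alpha and the beta member with the most counts, by the root mean square distance of centred log2 CPM. For TUBA1B they were RPS21, a ribosomal protein gene (0.0615), LGALS1, the galectin-1 gene (0.0885), and PRKDC, a DNA repair kinase gene (0.0958), against a median distance of 0.899 over all tested genes. For TUBB6 they were the zinc finger genes ZNF135 (0.0199) and ZNF497 (0.0325) and the transporter pseudogene ABCA17P (0.0267), against a median of 0.414. The named genes were picked as those with the smallest distances, so that they lie below the median is no test of likeness. The 2 members had different nearest genes. The log2 CPM of TUBA1B in KD1 was -1.71 relative to its own mean where that of TUBB6 was -0.57.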

How the data were processed

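Paired reads of 6 SKOV3 libraries were quantified by the authors with kallisto 0.43.0 against an Ensembl GRCh38 transcript set, and the deposited values per transcript are the expected count (also called estimated count) and the TPM, without replicates pooled. Whether a strand option was set is not given in the sources used here. Transcript IDs were joined to GENCODE release 44. The 17741 transcripts outside it, with 4.79 to 6.38% of counts, were left out of gene sums. Counts were added up over the transcripts of a gene and rounded. Genes passing filterByExpr (minimum count 10) were scaled by TMM and tested with edgeR 4.0.16 (exact test, Benjamini-Hochberg adjustment over all tested genes). Gene sums and the exact test follow the study's methods, while the annotation, filter and scaling were chosen here. The SE of a fold change is that of log2 CPM (prior count 2) over samples. Isotype levels used the deposited TPM with a pseudocount of 0.1 on the log scale. The edgeR step, tested on simulated data for the knockdown comparison (11461 genes), called 195 of 200 genes with a planted log2 change of 2 in the right direction, with 23 other calls. That change is larger than the estimate of any member, so the simulation does not show whether changes of the members' size would be called.

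The members and gene lists were chosen with earlier results of these data known. All members are named in the text. From each other list the tested gene with the smallest unadjusted p is named, since none passed the threshold, and all other tubulins that were tested. The most abundant transcript per member, the 3 nearest genes by course, and genes opposite a member with at least 10 counts are named too. Counts of any 2 samples differed by more than sampling noise (chi-square per degree of freedom at least 2.15). Correlations of the deviations of same-numbered samples (-0.40, -0.34 and 0.23) lay within the range for different numbers (-0.41 to 0.53). They thus showed no pairing by replicate number. With 3 samples per group, each centred on its group mean, they cannot exclude one. Alternatives comprised edgeR's quasi-likelihood test, DESeq2 1.42.0, limma 3.58.1 on TPM, other filters and scalings, and leaving out each sample.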

Additional observations from a re-analysis of the deposited data

How the results depend on the processing

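None of the 9 tested tubulin genes passed the threshold under any of the 18 alternatives run for each, TUBB2B could be tested only with no filter (adjusted p = 1), and the smallest adjusted p of a member among them was 0.427. Before adjustment, p by the exact test was below 0.05 for TUBA1A, TUBA1B and TUBB4B without NT2, against 897 of 12544 genes. Without KD3 it was so for TUBA1B and TUBB4B, against 620 of 12624 genes. These were all lower. With the reference mRNA share as a covariate, p by the quasi-likelihood test was below 0.05 for TUBB2A and TUBB3, both higher, against 572 of 11814 genes. Scaling to the reference mRNAs, their share as a covariate, and leaving out transcripts opposite coding genes were chosen after seeing the data. With libraries scaled to the reference mRNAs the log2 fold changes turned to 0.62 for TUBA1A, 0.055 for TUBA1B, 0.79 for TUBA1C, 0.77 for TUBA4A, 0.11 for TUBB, 0.74 for TUBB3 and 0.86 for TUBB6, a shift shared by all genes, whose median moved to 1.11. With the reference mRNA share as a covariate they turned to 0.073 for TUBA1B, 0.42 for TUBB, 0.62 for TUBB3, 0.32 for TUBB4B and 0.20 for TUBB6. Leaving out each sample in turn gave -0.11 to 0.59 for TUBB2A, -0.46 to 0.26 for TUBB3, -0.20 to 0.19 for TUBB6 and -1.56 to -0.36 for TUBB4B. For TUBA1B it gave -1.09 to -0.34, for TUBB -1.24 to -0.22, for TUBA1A -0.91 to -0.35, for TUBA1C -0.48 to -0.13 and for TUBA4A -0.51 to -0.29, always lower. The remaining tests, filters and scalings turned no member's direction. The causes were not tested.

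The count of genes called lower was 1 in the reported test, 0 by the quasi-likelihood test without a replicate block, 0 with the replicate block, 0 by DESeq2, 0 by limma on TPM and 0 with either use of the reference mRNAs. It was 2 with no filter, 2 with a minimum of 1 CPM in 3 samples and 4 with length-scaled TPM counts, which also called 2 genes higher. Leaving out a sample gave 0 (without NT3) to 3 (without KD3) lower and 0 to 1 higher. The replicate block left 160 genes with an unadjusted p below 0.05 against 346 without it, and no member was called with it. Transcripts called numbered 26 lower and 16 higher in the reported test, 0 and 0 by the quasi-likelihood test, 40 and 21 with no filter, and 33 to 130 lower and 22 to 43 higher when a sample was left out, with the most without NT2.

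TUBB3-206 turned to -0.00538 by the quasi-likelihood test and -0.0126 with no filter. When a sample was left out the log2 fold change of TUBB6-213 ran from -0.23 to 0.17, that of TUBA1C-201 from -0.53 to 0.00113, that of TUBB3-206 from -0.29 to 0.40 and that of TUBB2A-201 from -0.23 to 0.63. That of TUBA1B-202 ran from -1.21 to -0.35, of TUBB4B-201 from -1.59 to -0.40, and of TUBB-205 from -1.51 to -0.28, each highest without KD1. From estimated counts per mean transcript length 6 of the 9 neighbour pairs passed (adjusted p = 0.046875 by the exact permutation test), in an order taken from the same samples. TUBB4B then lay below TUBB3 (-1.10), and TUBA1C lay below TUBA1B by a log2 difference of -0.067. Without opposite transcripts the difference of TUBB6 from TUBA1C was -0.50. The difference of TUBA1A from TUBB2A ran from -0.00455 (without NT1) to 0.36. The share of TUBA1C in the alpha class was 52.9% in TPM, 36.3% in estimated counts and 40.7% without opposite transcripts. That of TUBB6 in the beta class was 94.0%, 89.8% and 44.2%. The log2 ratio of the summed TPM was -0.16, 0.00925 to -0.29 when a sample was left out (turned without KD1), and -0.47 without opposite transcripts.

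Mean estimated counts per sample were 20.5 for TUBB, 18.3 for TUBB2A and 29.5 for TUBA1A, so that their precision is limited by counting error as well as by the spread between samples.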
